A study of Drosophila melanogaster with 6 samples.

Results

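Peptidoglycan recognition proteins (PGRPs) are the proteins with which flies detect and digest bacterial cell wall. The data described here are the RNA levels of 9 named PGRP genes, taken by symbol from 17609 genes listed for thorax, gut and carcass of adult Drosophila melanogaster. Reads were counted for 7 of the 9: PGRP-SA, PGRP-SB1, PGRP-SC2, PGRP-LA, PGRP-LC, PGRP-LE and PGRP-LF. PGRP-SD and PGRP-LB had 0 reads in all 6 libraries. Each lies wholly inside another annotated gene (CG32373 and CG17230), so both are treated as not measured rather than as absent.

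There was 1 library for each of 2 genotypes in each of 3 tissues. The control flies carried the Act88F-Gal4 driver crossed to the w1118 strain, and the foxo RNAi flies carried the same driver with UAS-foxo RNAi. The Act88F promoter is active in indirect flight muscle, so gut and carcass came from flies in which the hairpin was driven in another tissue. Thorax was labelled as skeletal muscle, and carcass, dissected free of gut and eggs, as fat body. All flies were stated to be 10 days old and kept on a sugar and yeast diet from 2 to 3 days after eclosion. A diet length of 10 days is also stated, longer than that start and age allow. The sources used here do not give the number of flies behind a library.

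As background, PGRPs with a short form are mostly secreted, and those with a long form include membrane receptors and intracellular proteins. Some sense peptidoglycan and switch on the Toll or the IMD pathway, which drive antimicrobial peptide genes in the fat body and, for IMD, in the gut. Others are amidases, which cut peptidoglycan and thereby lower the signal that reaches the sensors.

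The libraries held between 13274574 and 34385727 counted reads, the deepest being the foxo RNAi thorax. A range of 7000000 to 12000000 sequenced reads is stated in the design text, fewer than were counted, and the sources used here do not explain the gap, so a count may not be 1 read and the counting intervals may be too narrow. A level is given in CPM, counts per 1000000 counted reads of the library. A floor of 3 counts was worth between 0.0873 and 0.226 CPM. The exact 95% counting interval of 0 reads reached somewhat higher, to between 0.107 and 0.278 CPM. TMM scaling, a correction for library make-up, was used in the tissue tests but not in CPM. Fold differences of the tests are therefore not ratios of the CPM given. Fat body markers summed to 100137 CPM in the control carcass and 71758 CPM in the foxo RNAi carcass. Muscle markers summed to 28623 and 23877 CPM in thorax, with TpnC4 at 0 reads in every library, and fat body markers there summed to more, 42781 and 49343 CPM. Gut markers, with Ssk at 0 reads in every library, summed to 109009 and 86410 CPM in gut. The thorax and carcass libraries also held other RNA that their labels do not name. Eye and neuron markers summed to 580 and 595 CPM in thorax, 1011 CPM in the control carcass and 111 CPM in the foxo RNAi carcass. Gut markers summed to 830 CPM in the control carcass, 113 CPM in the foxo RNAi carcass, 115 CPM in the control thorax and 2170 CPM in the foxo RNAi thorax. Eggshell and germline markers summed to 2332 CPM in the control carcass and 6333 CPM in the foxo RNAi carcass. In bulk tissue, fewer cells of a type and less RNA per cell cannot be told apart. The targeted gene foxo had ratios of foxo RNAi over control of 0.717 (95% counting interval 0.686 to 0.749) in thorax, 0.783 (0.719 to 0.852) in gut and 0.763 (0.708 to 0.823) in carcass.

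PGRP genes were distributed differently between gut and the other tissues. PGRP-SC2 was highest in gut, PGRP-SB1 and PGRP-SA were high in thorax and carcass and low in gut, and PGRP-LE and PGRP-LA were also highest in gut, by smaller factors. PGRP-LC did not pass the test between any pair of tissues. The test was edgeR's quasi-likelihood test, which sets the 2 libraries of a tissue, 1 of each genotype, against those of another. Its error is the scatter that remains once a genotype effect common to the tissues is taken out (2 residual degrees of freedom), and the 3 comparisons share libraries. Of the 7 measured genes, 6 differed between thorax and gut, 3 in each direction, where 54.6% of all 9293 genes tested were called (28.1% higher in thorax and 26.5% higher in gut). Between gut and carcass 5 of 7 differed, 3 higher and 2 lower in gut, against 43.4% of all genes (20.7% higher and 22.8% lower in gut). Between thorax and carcass 3 of 7 differed, 2 higher and 1 lower in thorax, against 41.2% of all genes (21.9% higher and 19.3% lower), a share near that of the 7. Fat body markers moved with the genes that were low in gut. Of 9 tested, 8 were higher in thorax than in gut and 8 lower in gut than in carcass. Other lists did so too. Of 12 haemocyte markers, 9 were higher in thorax than in gut and 9 lower in gut than in carcass. In each comparison 1 haemocyte marker went the other way. Cuticle and trachea markers had 7 and 6 of 9, and muscle markers 9 and 3 of 9. Gut markers moved with the genes that were high in gut, 10 of 11 in each of these comparisons. The part of any of these lists in the PGRP levels was not tested.

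**Figure D1:**
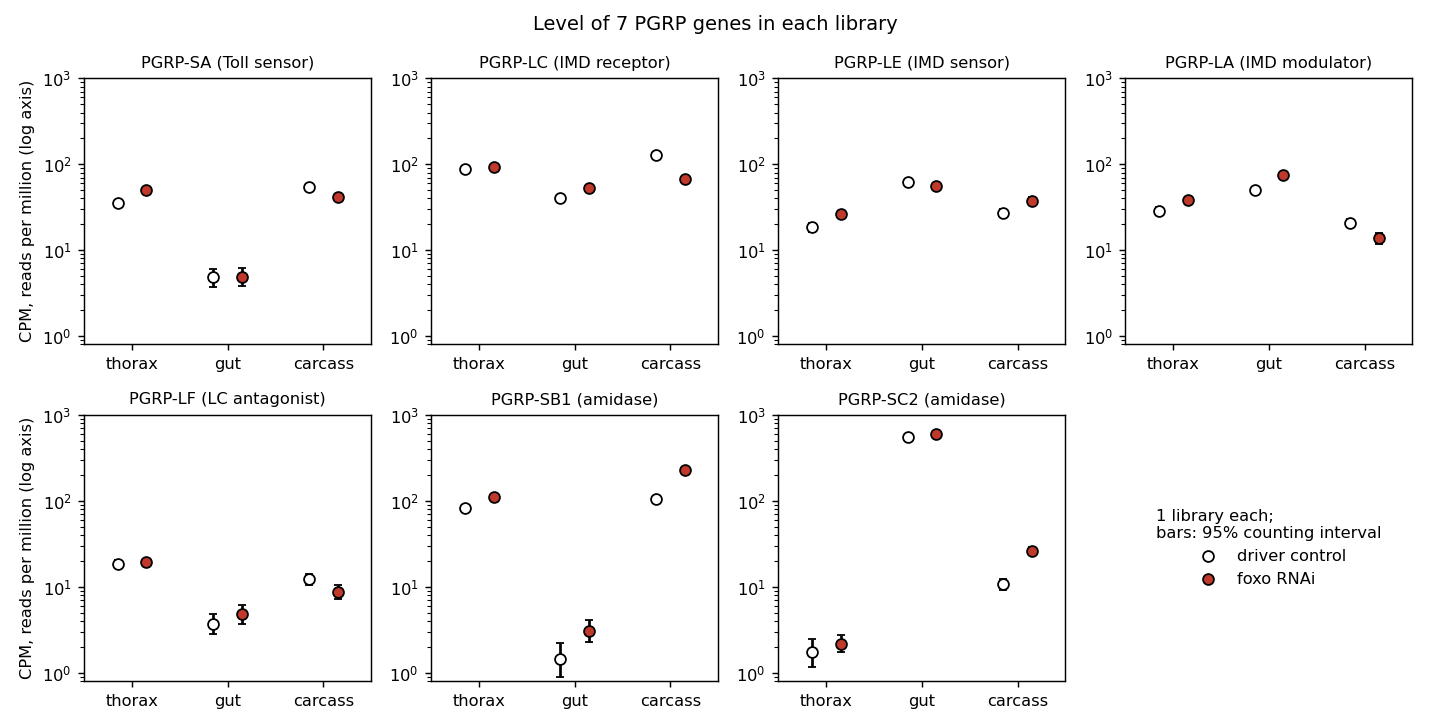
Level of the 7 measured PGRP genes in each of the 6 libraries, as CPM on a log axis, with 1 panel per gene and 1 point per library. Bars are 95% counting intervals; PGRP-SC2 reaches 562 and 598 CPM in gut, where PGRP-SB1 has its lowest levels, 1.45 and 3.09 CPM.

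PGRP-SA, the secreted sensor of Lys-type peptidoglycan upstream of Toll, lies on chromosome X from 11561643 to 11562779 on the plus strand of Release 6, with 1018 exonic bases and a protein of 203 residues. It had 35.5 CPM in the control thorax and 50.7 CPM in the foxo RNAi thorax, 4.82 and 4.92 CPM in the gut libraries, and 54.0 and 41.6 CPM in the carcass libraries. Both gut libraries were below all other libraries, and thorax and carcass overlapped. The level was 6.30-fold higher in thorax than in gut (log2 difference 2.66, SE 0.308, adjusted p = 0.00156) and 6.17-fold lower in gut than in carcass (log2 difference -2.62, SE 0.308, adjusted p = 0.00222). Thorax and carcass differed by 0.03 on the log2 scale (adjusted p = 0.938). The remaining Toll sensor of the family, PGRP-SD, was not measured.

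PGRP-LC is the main membrane receptor of the IMD pathway and senses DAP-type peptidoglycan. It lies on chromosome 3L from 9338810 to 9348336 on the plus strand, with 10 annotated transcripts and proteins of 329 to 520 residues. The control and foxo RNAi levels were 88.6 and 93.9 CPM in thorax, 40.1 and 53.1 CPM in gut, and 128 and 67.1 CPM in carcass. In CPM the carcass libraries had both the highest level of the 6 and one below both thorax libraries, so carcass overlapped thorax. The gut libraries were below all others in CPM. TMM scaling over the 6 libraries had factors of 0.718 and 0.825 in gut and 1.16 and 1.27 in carcass, control first. With it the foxo RNAi carcass came below both gut libraries. No comparison of tissues passed the test: the log2 difference was 0.48 (SE 0.341, adjusted p = 0.279) for thorax minus gut, 0.12 (adjusted p = 0.802) for thorax minus carcass and -0.36 (SE 0.346, adjusted p = 0.431) for gut minus carcass. Without the foxo RNAi carcass library, gut minus carcass passed, at -0.91 with an adjusted p of 0.0479.

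PGRP-LE is a sensor of DAP-type peptidoglycan that acts inside cells and is known for IMD signalling in the midgut. It lies on chromosome X from 15801153 to 15803880 on the minus strand, and codes for 345 residues. Gut had the most, 61.3 CPM in the control and 55.7 CPM in the foxo RNAi library, followed by carcass with 27.4 and 37.7 CPM and thorax with 18.3 and 26.5 CPM. Both gut libraries were above the other 4, and in CPM the foxo RNAi thorax was just under the control carcass. PGRP-LE was 3.75-fold lower in thorax than in gut (log2 difference -1.91, SE 0.267, adjusted p = 0.00287) and 2.93-fold higher in gut than in carcass (log2 difference 1.55, SE 0.264, adjusted p = 0.00731). The call against carcass was lost without the control gut library (adjusted p = 0.0789). Thorax minus carcass was -0.35 on the log2 scale and did not pass (adjusted p = 0.313).

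PGRP-LA, PGRP-LC and PGRP-LF are neighbours on the plus strand of chromosome 3L, 473 bases apart between PGRP-LA and PGRP-LC and 1272 bases apart between PGRP-LC and PGRP-LF. PGRP-LA, which modulates IMD signalling in barrier epithelia and is not thought to bind peptidoglycan, occupies 9334332 to 9338336 and has 5 annotated transcripts with proteins of 138 to 368 residues. Its levels were 50.6 and 75.3 CPM in gut, 28.9 and 38.6 CPM in thorax, and 20.9 and 13.7 CPM in carcass, again with the control first. The 3 tissues did not overlap: gut was highest and carcass lowest in either genotype. PGRP-LA was 5.67-fold higher in gut than in carcass (log2 difference 2.50, SE 0.344, adjusted p = 0.00370). The differences of thorax from its neighbours in that order were smaller, -1.38 from gut (SE 0.327, adjusted p = 0.0172) and 1.13 from carcass (SE 0.332, adjusted p = 0.0442). Thorax minus gut lost its call without the control thorax library (adjusted p = 0.0644), the control gut library (0.0546) or the foxo RNAi gut library (0.158). Thorax minus carcass lost it without either gut library (adjusted p = 0.0745 and 0.0737), the foxo RNAi thorax (0.154) or the foxo RNAi carcass (0.104).

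PGRP-LF is a membrane protein that antagonises PGRP-LC. It lies from 9349609 to 9351489 and codes for 369 residues. It had 18.5 and 19.3 CPM in thorax, 3.72 and 4.78 CPM in gut, and 12.2 and 8.74 CPM in carcass. Thorax, carcass and gut came in that order without overlap. Thorax was 3.17-fold above gut (log2 difference 1.67, SE 0.318, adjusted p = 0.00823), and that call was lost without the control gut library (adjusted p = 0.0912). Thorax minus carcass was 1.03 (SE 0.307, adjusted p = 0.0450) and lost its call without any 1 of 5 libraries, all but the control carcass, with adjusted p-values of 0.0870 to 0.189. Gut minus carcass was -0.63 and did not pass (adjusted p = 0.163). The gene shares 623 bases, 33.1% of its span, with UGP on the opposite strand. UGP codes for an enzyme of UDP-glucose synthesis and had 568 and 570 CPM in thorax, 50.6 and 42.8 CPM in gut, and 1108 and 778 CPM in carcass. The sources used here do not say whether strand was used in counting, so the level of PGRP-LF is uncertain.

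The RNA of the receptor PGRP-LC was above that of its antagonist PGRP-LF in each of the 6 libraries. Exonic length was taken over all annotated transcripts of a gene, 10 for PGRP-LC, 5 for PGRP-LA, 2 for PGRP-LE and 1 for PGRP-LF. Levels per exonic base may therefore be too low for genes with many transcripts, which the counting intervals do not cover. Per exonic base, the level of PGRP-LC was 1.73 times PGRP-LF in the control thorax (95% counting interval 1.54 to 1.96) and 1.77 times in the foxo RNAi thorax (1.62 to 1.92). In gut the ratios were 3.91 (2.95 to 5.27) and 4.02 (3.13 to 5.23), and in carcass 3.78 (3.25 to 4.40) and 2.78 (2.29 to 3.40). The order of the 2 IMD sensors was not the same in each tissue: the level of PGRP-LC was 2.67 and 1.96 times PGRP-LE per exonic base in thorax, but 0.362 and 0.527 times in gut. In carcass it was 2.58 times PGRP-LE in the control library and 0.987 times in the foxo RNAi library. PGRP-LA was 2.25 and 2.53 times PGRP-LC in gut, 0.583 and 0.733 times in thorax, and 0.292 and 0.365 times in carcass.

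The amidase PGRP-SB1, a secreted enzyme described as bactericidal, lies on chromosome 3L from 16727299 to 16727989 on the minus strand, with 623 exonic bases and 190 residues. It was at 83.7 and 111 CPM in thorax, 1.45 and 3.09 CPM in gut, and 106 and 231 CPM in carcass. The gut libraries, with 21 and 44 reads, were far below the other 4, and thorax and carcass overlapped. Thorax was 32.5-fold above gut (log2 difference 5.02, SE 0.289, adjusted p = 0.000443) and carcass 46.2-fold (gut minus carcass -5.53, SE 0.294, adjusted p = 0.000602). Thorax minus carcass was -0.51 (SE 0.233, adjusted p = 0.131). Its neighbour PGRP-SB2, on the opposite strand with 10 bases between them, had 3 reads in all 6 libraries together.

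PGRP-SC2, the amidase that scavenges peptidoglycan in the gut, had the opposite distribution. It lies on chromosome 2R from 8716950 to 8717695 on the plus strand and codes for 184 residues. The gut libraries had 562 and 598 CPM, from 8169 and 8515 reads, the carcass libraries 10.6 and 26.2 CPM, and the thorax libraries 1.72 and 2.18 CPM. The 3 tissues did not overlap. PGRP-SC2 was 428-fold lower in thorax than in gut (log2 difference -8.74, SE 0.498, adjusted p = 0.000442) and 54.5-fold higher in gut than in carcass (log2 difference 5.77, SE 0.436, adjusted p = 0.000714). It was also lower in thorax than in carcass (log2 difference -2.97, SE 0.397, adjusted p = 0.00534). PGRP-SC1a and PGRP-SC1b, near-identical copies of each other whose reads the counting could split between them, shared the preference for gut. PGRP-SC1b had 620 and 382 reads in gut, at most 2 in either thorax library, and 31 and 1 in carcass. PGRP-SC1a had 255 and 278 reads in gut, 0 and 2 in thorax, and 21 and 1 in carcass.

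**Figure D2:**
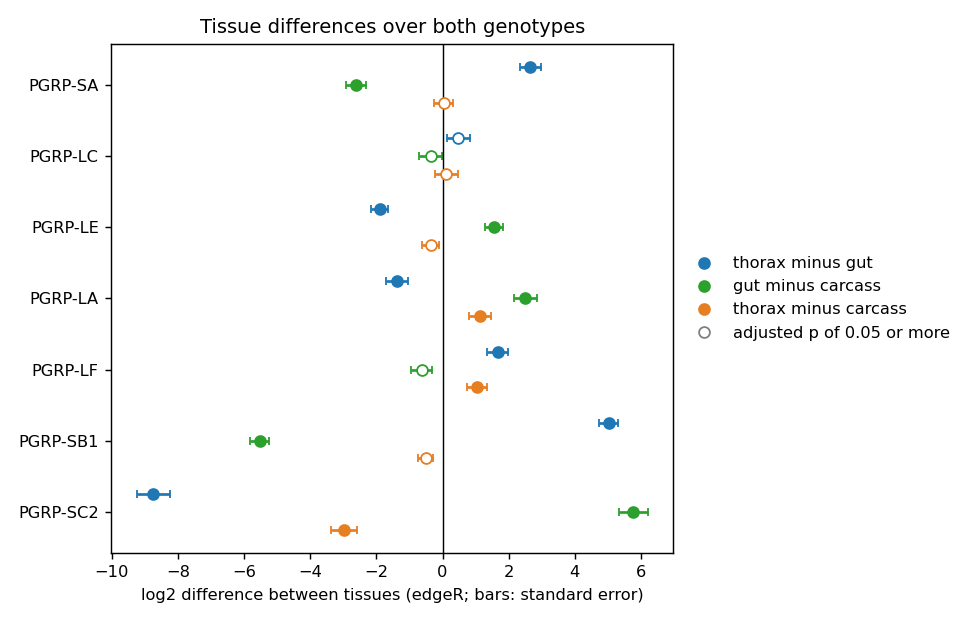
Log2 difference between tissues for the 7 measured PGRP genes, with bars of 1 SE from edgeR's quasi-likelihood fit over 6 libraries. Filled points passed at an adjusted p under 0.05 and open points did not; PGRP-SC2 and PGRP-SB1 lie farthest from 0 and on opposite sides for thorax minus gut, at -8.74 and 5.02.

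Because a longer gene yields more reads, the make-up of the family was compared per kilobase of exon, over the family genes with reads. PGRP-SD, PGRP-LB and PGRP-LD had 0 reads in every library, so their part in the family level is unknown. PGRP-SC2 accounted for 85.3% of the family level in the control gut and 85.2% in the foxo RNAi gut. PGRP-SB1 took the largest share elsewhere, 58.0 and 59.2% in thorax and 55.4 and 74.8% in carcass. PGRP-SA was next, with 15.1 and 16.5% in thorax and 17.2 and 8.22% in carcass. PGRP-LC held 10.2 and 8.30% in thorax, 1.21 and 1.50% in gut, and 11.1 and 3.61% in carcass. Among the family genes with reads, an amidase thus led in each of the 6 libraries. It was a different amidase in gut than in thorax and carcass. Shares of 1 whole move together, so a high share of PGRP-SB1 lowers those of the others by construction.

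**Figure D3:**
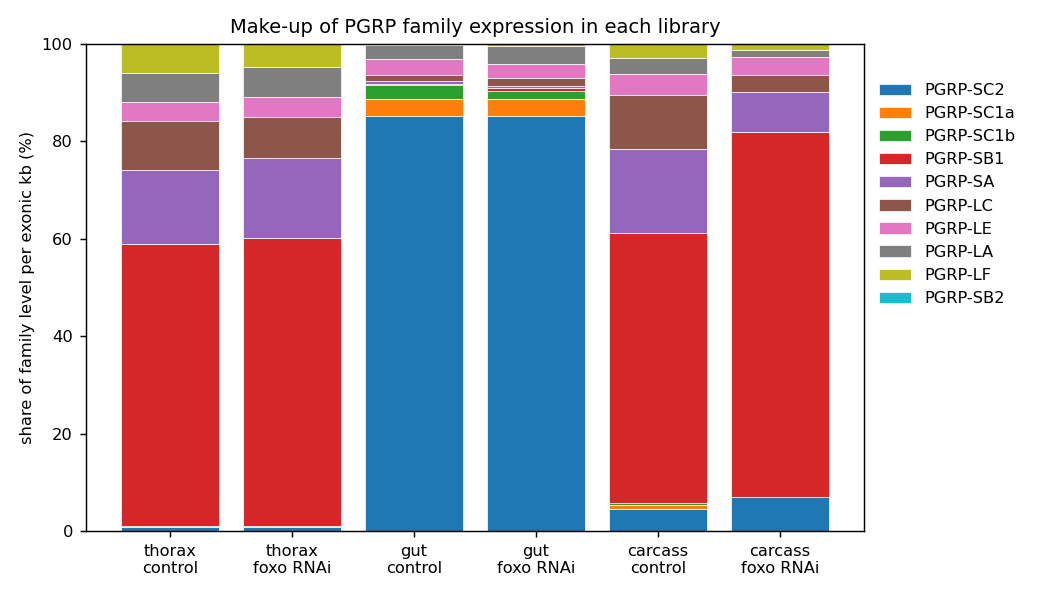
Share of each PGRP gene with reads in the summed level of these genes per exonic kilobase, in percent, with 1 stacked bar per library. PGRP-SC2 fills 85.3 and 85.2% of the gut bars, and PGRP-SB1 between 55.4 and 74.8% of the thorax and carcass bars.

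The second question was whether the genes differed between foxo RNAi and control flies. With 1 library per genotype and tissue this has no replicate check and no p-value, and a difference between genotypes cannot be told apart from a difference between dissections. Each ratio of foxo RNAi over control is given with its exact 95% interval, which covers counting error only, since PCR copies of a molecule are counted as separate reads. A call needed 30 reads over the pair of libraries, a 2-fold ratio and a bound nearest to equality of 1.5-fold or more (the size rule).

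In thorax, where the hairpin was driven, 0 of the 7 genes were called, against 6.28% of all genes compared (3.56% higher and 2.72% lower). PGRP-SA had a ratio of 1.34 (1.23 to 1.47), PGRP-LE 1.36 (1.20 to 1.55), PGRP-LA 1.26 (1.14 to 1.39) and PGRP-SB1 1.25 (1.18 to 1.33). PGRP-LC was at 0.999 (0.941 to 1.06) and PGRP-LF at 0.979 (0.857 to 1.12). PGRP-SC2 was at 1.18 (0.775 to 1.88) from 31 and 75 reads. So 4 intervals lay above 1 and 3 held it. The share of all genes with an interval above 1 was not counted, so this is not a result about the family. The median log2 ratio of the 7 was 0.33, and that of all genes 0.00. Gut markers were 115 CPM in the control and 2170 CPM in the foxo RNAi thorax, while PGRP-SC2 stood at 1.72 and 2.18 CPM. Of the 2170 CPM, Muc68D alone held 1117 CPM, and 10 of the 11 gut markers compared were called higher.

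In gut, 0 of the 7 were called, against 5.4% of all genes compared (2.22% higher and 3.18% lower). By the authors' RPKM, 2-fold and with no interval, 1 of the 7 was called, PGRP-SB1, against 8.26% of all genes. PGRP-LA had a ratio of 1.26 (1.15 to 1.39) and PGRP-LC 1.12 (1.01 to 1.25). PGRP-SB1 was at 1.80 (1.06 to 3.22), from 21 and 44 reads. PGRP-LE was at 0.772 (0.701 to 0.851), so with TMM scaling the 2 IMD sensors had intervals on opposite sides of 1. With total-count scaling PGRP-LE was closer to equality, at -0.14 on the log2 scale in place of -0.37. PGRP-SC2 was at 0.905 (0.877 to 0.933), which on the log2 scale was -0.14 with the main TMM scaling and 0.09 with total-count scaling, so its direction depended on the scaling. PGRP-SA was at 0.868 (0.614 to 1.23) and PGRP-LF at 1.09 (0.753 to 1.59). PGRP-SC1b had 0.535 (0.469 to 0.608) and was not called either.

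In carcass, 2 of the 7 were called, against 13.6% of all genes compared: PGRP-LC lower, as were 10.2% of genes, and PGRP-SC2 higher, as were 3.41%. PGRP-LC went from 1992 to 891 reads and was 2.13-fold lower (1.97 to 2.31). With total-count scaling it had a log2 ratio of -0.93 and was not called. PGRP-SC2 went from 166 to 348 reads, a ratio of 2.19 (1.82 to 2.66). PGRP-SB1 had 1661 and 3072 reads and a ratio of 1.94 (1.83 to 2.06), just under the fold required, and with total-count scaling, which called 13.3% of all genes, it was called at 1.12 on the log2 scale. The genes of the 3L cluster lay on the same side: PGRP-LA had a ratio of 0.586 (0.485 to 0.704) and PGRP-LF 0.638 (0.501 to 0.806). UGP, which overlaps PGRP-LF, had 0.625 (0.610 to 0.641) in carcass. In gut UGP had 0.718 and PGRP-LF 1.09. Whether strand was used in counting is not stated, and the part of UGP in the PGRP-LF ratio was not tested. PGRP-SA had 0.687 (0.616 to 0.765) and PGRP-LE 1.23 (1.07 to 1.40). So both amidases and PGRP-LE had intervals above 1, and PGRP-SA, PGRP-LA, PGRP-LC and PGRP-LF intervals below 1. The shares of all genes with such intervals were not counted here either. The median log2 ratio of the 7 was -0.54, and that of all genes 0.06.

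Several marker lists moved with the carcass comparison. Eye and neuron markers, 8 of 8 with reads, went from 1011 to 111 CPM, and 6 of the 7 compared were called lower. Among them ninaE, the main rhodopsin gene, went from 11546 of 15796 list reads to 22 of 1468. The gene norpA, which was not called, held 1218 of those 1468 reads. Eggshell and germline markers went the other way, from 2332 to 6333 CPM. Gut markers, 11 of 12 with reads, went from 830 to 113 CPM and fat body markers from 100137 to 71758 CPM. Their part in the lower PGRP-LC was not tested. PGRP-SC2 was higher in the carcass library that had the lower gut markers. Per 1000 gut-marker reads it had 12.8 reads in the control carcass and 231 in the foxo RNAi carcass, against 5.16 and 6.93 in gut. In thorax, where gut markers were higher in the foxo RNAi library, the control held 15 such reads and the foxo RNAi library 1.00. Gut-marker reads are the denominator of this ratio, so by construction it falls where they are higher, unless PGRP-SC2 rises as much. The make-up of these reads also differed between libraries. Muc68D alone was 6880 of 12960 in the control carcass and 57 of 1504 in the foxo RNAi carcass. It was 38413 of 74614 in the foxo RNAi thorax, but 55526 of 1584217 in the control gut. Of the gut markers compared, 9 of 10 were called lower in carcass and 10 of 11 higher in thorax. PGRP-SC1b, the neighbour of PGRP-SC2 1855 bases away, went the other way in carcass, from 31 reads to 1, and was called 20.0-fold lower (4.93 to 1205).

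**Figure D4:**
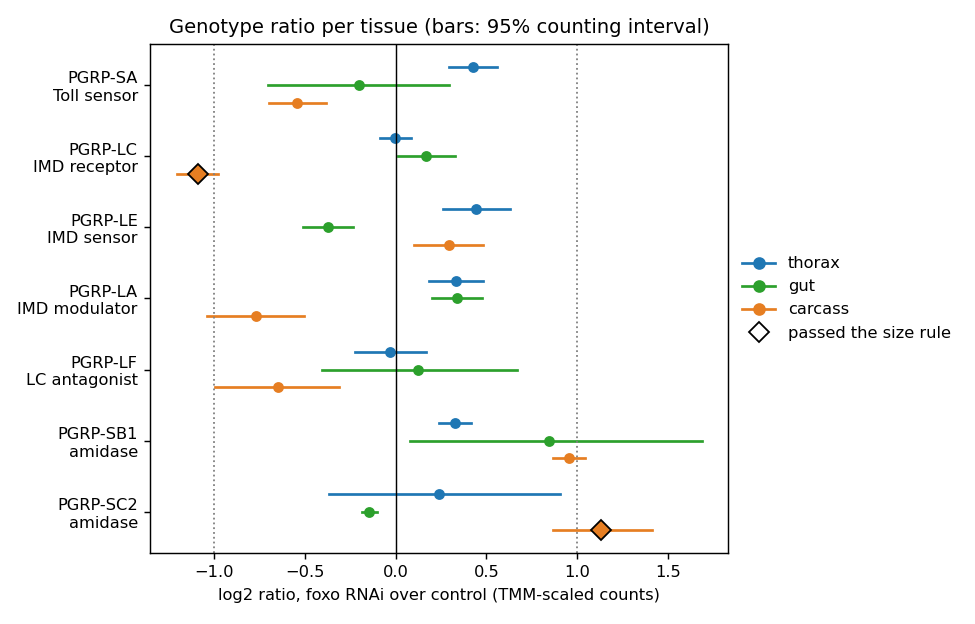
Log2 ratio of foxo RNAi over control for the 7 measured PGRP genes in thorax, gut and carcass, with 95% counting intervals from 1 library each. Dotted lines mark a 2-fold difference and diamonds the genes that passed the size rule, which were PGRP-LC and PGRP-SC2 in carcass.

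A difference shared by the 3 tissues was tested as the genotype term of the edgeR fit. It called 0 of the 7 genes and 0 of all 9293 (0%). At an unadjusted p under 0.05 it gave 1 of the 7 and 637 of all genes, 6.85%. DESeq2 on the same design called 0 of the 7 and 122 of all genes. The 1 gene was PGRP-SB1, with a log2 difference of 0.71 (SE 0.203, unadjusted p = 0.0158, adjusted p = 0.588), and its ratio was above 1 in 3 of 3 tissues. The 3 pairs are different tissues, not replicates of 1 tissue.

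For each gene the 2 most similar genes were taken by Pearson's r of log2 levels over the 6 libraries, among 4803 genes with at least 300 reads. These correlations are descriptions, since the 6 points are 3 tissues and each gene with the same tissue pattern scores high. Pearson's r also leaves out the size of a difference. Gga, named below for PGRP-SC2, ranged from 26.6 to 83.8 CPM, and PGRP-SC2 itself from 1.72 to 598 CPM. PGRP-SA was most like Idgf4, an imaginal disc growth factor gene (r = 0.998), and hgo, a gene of tyrosine breakdown (0.998). PGRP-SB1 was most like ed (0.997) and GILT1 (0.996), and PGRP-SC2 most like Gga (0.999) and Hr96, a nuclear receptor gene (0.998). PGRP-LA was most like qtc (0.999) and the matrix metalloprotease gene Mmp1 (0.999). PGRP-LE was most like C1GalTA (0.995) and Mkk4 (0.995), and PGRP-LF like unc80 (1.00) and Nckx30C (0.999). PGRP-LC stood lower, with its 2 best matches at 0.982 for trpl and 0.978 for IP3K2. The gene trpl codes for a photoreceptor channel and had 1505 reads in the control carcass, 10 in the foxo RNAi carcass and 7 to 429 in the other libraries.

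The pathways into which the PGRPs feed were read from lists of their known genes. Of 17 IMD core genes 15 were measured, and Rel, the NF-kappaB factor of the pathway, and Fadd had 0 reads in every library. By the size rule 0 of the 15 were called between genotypes in any tissue, with median log2 ratios of 0.10 in thorax, 0.04 in gut and -0.03 in carcass. Of all genes compared, 6.28, 5.4 and 13.6% were called in these tissues. Of 14 genes compared from the list of IMD regulators, 2 were lower in the foxo RNAi thorax, as were 2.72% of all genes. They were dnr1 (2.23-fold) and CYLD (2.06-fold), both known as inhibitors of the pathway. In carcass 1 of 14 was lower, dnr1 at 2.87-fold, beside 10.2% of all genes. In gut 0 were called, beside 5.4% of all genes. With total-count scaling the counts were 1 lower in thorax and 3 higher in gut, beside 2.18 and 4.23% of all genes. In carcass they were 1 higher and 1 lower, beside 5.57 and 7.75%.

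The extracellular part of the Toll pathway was low in gut. Of 14 genes of this list 11 were measured, and all 11, recognition proteins and the protease cascade that activates spz, were higher in thorax than in gut, as were 28.1% of all genes, among them the protease genes SPE (52.1-fold), Hayan (34.4-fold), psh (32.2-fold) and grass (31.6-fold). In gut 10 of 11, all but spirit, were lower than in carcass, as were 22.8% of all genes, with SPE at 39.9-fold, Hayan at 38.6-fold and psh at 25.8-fold. Between thorax and carcass 1 was higher, grass, and 1 lower, GNBP1, beside 21.9 and 19.3% of all genes. Fat body markers and most haemocyte markers, as given above, moved in the same directions, and their part was not tested. PGRP-SA, the sensor upstream of them, was likewise lower in gut than in thorax and carcass. Between genotypes 1 of the 11 was called, Hayan in carcass at 2.07-fold lower, where 10.2% of all genes were lower. With total-count scaling 0 of them were called. Of 12 Toll core genes 0 were called between genotypes, beside 6.28, 5.4 and 13.6% of all genes in thorax, gut and carcass.

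Of 14 antimicrobial peptide genes, the targets of both pathways, 12 were measured. In thorax 6 of 11 were higher in the foxo RNAi library, as were 3.56% of all genes, among them CecC (2.76-fold), AttA (2.69-fold), Dpt (2.53-fold) and Drs (2.42-fold). In gut 2 of 7 were higher, beside 2.22% of all genes, Drs (3.42-fold) and AttD (2.30-fold). In carcass 6 of 12 were higher and 1 lower, beside 3.41 and 10.2% of all genes, with Dro at 18.5-fold, Dpt at 7.63-fold, AttA at 3.69-fold and DptB at 3.46-fold higher, and AttD, named after its value was seen, lower at a ratio of 0.316. Their median log2 ratios were 1.10, 0.93 and 0.93, beside -0.03 to 0.10 for the IMD core genes. The difference between the lists was not tested. In the same pairs of libraries gut markers were higher in the foxo RNAi thorax (10 of 11) and lower in the foxo RNAi carcass (9 of 10), and eye and neuron markers lower in that carcass (6 of 7). Their part in the antimicrobial peptide ratios was not tested. The genotype term over the 3 tissues called 0 genes of each list.

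**Figure D5:**
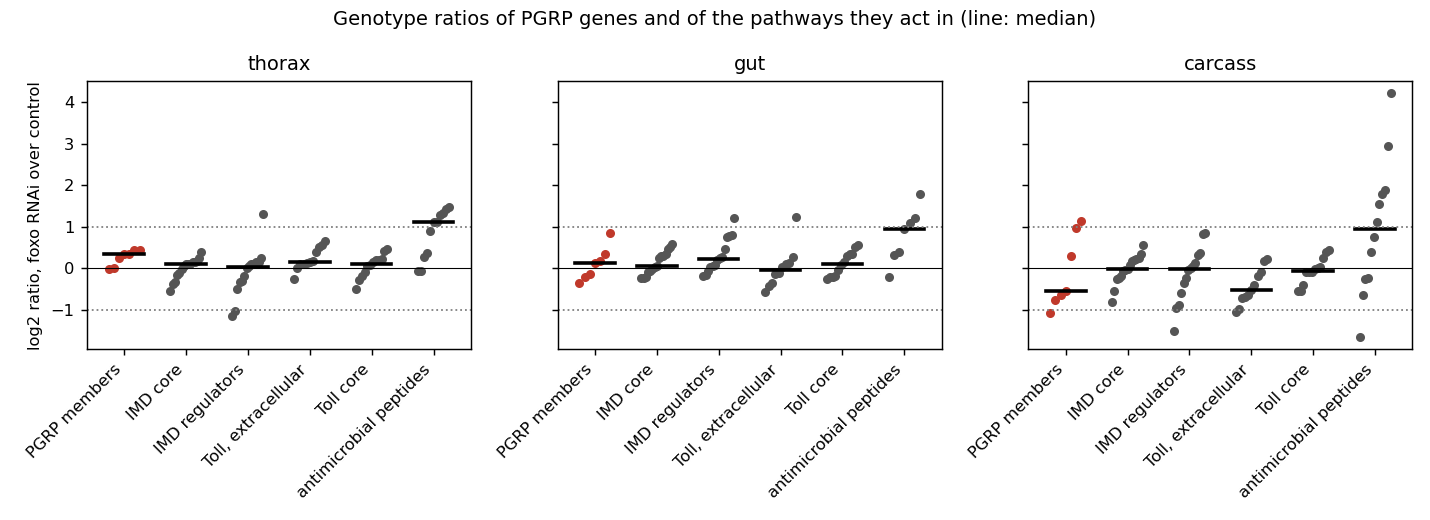
Log2 ratio of foxo RNAi over control per gene, for the PGRP genes, the other lists of the IMD and Toll pathways and the antimicrobial peptide genes, with 1 panel per tissue. Horizontal bars are medians and dotted lines a 2-fold difference; the median of the antimicrobial peptide genes is 1.10 in thorax, 0.93 in gut and 0.93 in carcass.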

How the data were processed

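Total RNA of 6 samples, 3 tissues by 2 genotypes, was made into stranded libraries and read for 50 bases from 1 end, per the labels' protocols and design text, and mapped to Release 6. The sources used here do not give the aligner, counting tool, annotation or strand setting. The deposited files hold whole-number counts of reads per gene, not normalized, and RPKM values, scaled by the authors to library total and gene length, which were used as an alternative. The labels do not say whether samples were pools of flies, so p-values measure the spread between these libraries.

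The listed genes and pathway lists were chosen with earlier results of these data known. Genotype ratios used TMM-scaled counts of 2 libraries (edgeR 4.0.16, R 4.3.3), with 0.5 added and Clopper-Pearson 95% intervals (scipy 1.17.1). They were called at 30 reads, 2-fold and a near bound of 1.5-fold. Tissues were tested with edgeR's quasi-likelihood test, TMM scaling and genotype as covariate, on genes kept by filterByExpr. The threshold was a Benjamini-Hochberg adjusted p under 0.05 over all genes tested. The scripts were tested on simulated data. Other genes were named by rule: per list and comparison at most 4 called genes, by the largest near interval bound, and per PGRP gene the 2 most similar genes. Alternatives were total-count and DESeq2 1.42.0 scaling, read minimums of 10 and 100, RPKM, DESeq2's test, no filter, no genotype term, and leaving out each library or tissue. Positions come from the deposited files and exons from the Ensembl annotation of the same release. Protein and promoter sequences were not used here.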

Additional observations from a re-analysis of the deposited data

Results flagged for a closer look

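For 5 of the 7 measured PGRP genes the genotype ratio had counting intervals on opposite sides of 1 in different tissues. The intervals cover counting error only, and the share of all genes with such a pattern was not counted. It was also seen outside the family, as in Dif (1.16 in thorax, 0.752 in carcass) and key (1.42 in gut, 0.763 in thorax). PGRP-LC had a ratio of foxo RNAi over control of 1.12 in gut and 0.469 in carcass. PGRP-LA had 1.26 in thorax, 1.26 in gut and 0.586 in carcass, and PGRP-SA had 1.34 in thorax and 0.687 in carcass. PGRP-LE went the other way in gut, with 0.772 there, 1.36 in thorax and 1.23 in carcass. With total-count scaling its log2 ratio in gut was closer to equality, at -0.14 in place of -0.37. PGRP-SC2 had 0.905 in gut and 2.19 in carcass, but its ratio in gut was above 1 with total-count scaling. With 1 library per genotype and tissue, the difference between tissues was not tested for any of them.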

How the results depend on the processing

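Total counts in place of TMM raised the median log2 genotype ratio of all genes by 0.24 in gut and 0.17 in carcass. The number of PGRP genes called in carcass stayed at 2 under each alternative, although total counts and RPKM lost PGRP-LC and gained PGRP-SB1. In gut the RPKM ratio called 1, PGRP-SB1, where counts called 0. Thorax against carcass went from 3 PGRP genes to 1 with total counts and to between 1 and 3 when a library was left out, PGRP-LA and PGRP-LF being lost. The cause was not tested. Leaving out a library gave 4 to 6 genes for thorax against gut and 4 to 6 for gut against carcass. PGRP-LA in thorax minus gut missed the threshold with total counts (adjusted p = 0.0705), and PGRP-LF in gut minus carcass passed it (log2 difference -1.30, adjusted p = 0.0218). The differences of PGRP-SA, PGRP-SB1 and PGRP-SC2 between gut and the other tissues passed in 11 of 11 alternatives. The genotype term called 0 PGRP genes in each. A tissue with 1 library left was assumed to vary like the others. Genotype was a term of the tissue fit, and without it the tissue comparisons called 6, 3 and 5 PGRP genes, as with it. No paired analysis was possible because the labels carry no replicate numbers, beyond this pairing by genotype. Depth limited PGRP-SB1, PGRP-SA and PGRP-LF in gut and PGRP-SC2 in thorax, with 21 to 75 reads a library.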

Other observations

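Among the genes listed with the regulators of IMD signalling, pirk, nub, cad and Duox differed between tissues by large factors. Of these, nub, cad and Duox were chosen after their values were seen, and Duox is a defence gene rather than a known regulator. The gene pirk codes for an inhibitor that binds PGRP-LC. It was 19.0-fold higher in gut than in carcass (adjusted p = 0.00122, edgeR) and 5.64-fold higher in thorax than in carcass (adjusted p = 0.00742). The transcription factor gene nub, a repressor of antimicrobial peptide genes, was higher in gut than in carcass (log2 difference 8.15, SE 0.410, adjusted p = 0.000602) and lower in thorax than in gut (log2 difference -6.44, SE 0.348, adjusted p = 0.000410). The homeobox gene cad, a repressor of such genes in the posterior gut, was lower in thorax than in gut (log2 difference -8.86, SE 0.459, adjusted p = 0.000392). Between gut and carcass it differed by 0.82 (SE 0.308, adjusted p = 0.0810) and did not pass. Duox, which codes for the dual oxidase known from gut defence, was lower in gut than in carcass (log2 difference -6.52, SE 0.383, adjusted p = 0.000602), with 6 and 15 reads in the gut libraries and 1127 and 1908 in carcass.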
